A study of Rattus norvegicus with 6 samples.

Results

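The DNA replication machinery was followed in c-kit+ bone marrow cells of ACI rats 36 h after an injection of phenylhydrazine (PHZ), a compound that damages red cells and produces haemolytic anaemia. The gene set was defined by name, as 46 genes that encode proteins of origin licensing, the replicative helicase, the polymerases, the sliding clamp and its loaders, Okazaki fragment joining, fork protection and histone supply. Of these, 45 were among the 17172 genes and loci of the files, and all 45 passed the filter on low counts, which kept 13547 genes and loci. Chaf1a, the large subunit gene of chromatin assembly factor 1, was not listed under its symbol.

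The PHZ group held 3 rats that received 100 mg/kg PHZ intraperitoneally, and the PBS group held 3 rats that received phosphate-buffered saline. All rats were of the ACI strain and aged 6 to 8 weeks, and each group had 2 rats labelled female and 1 labelled male. Marrow of the hind legs was enriched for cells that carry c-kit, a receptor tyrosine kinase of blood progenitors, with a biotin-tagged antibody and streptavidin particles, and 1 poly(A) library was made per rat. Cells that carry c-kit include progenitors of several lineages and early erythroid cells. A higher level could come from more cells of a type or from more RNA per cell. Likewise a lower level could come from fewer cells of a type or from less RNA per cell. These cannot be told apart here.

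Replication starts at origins bound by the origin recognition complex (ORC), where CDC6 and CDT1 load a ring of the MCM2 to MCM7 subunits before S phase. A kinase made of CDC7 and DBF4 then helps to turn the loaded ring, together with CDC45 and the GINS complex, into the active helicase. Polymerase alpha with primase lays down primers, polymerases epsilon and delta extend them on the clamp PCNA, and E2F transcription factors are known to drive many of these genes as cells enter S phase. Early erythroid precursors in marrow divide rapidly while they differentiate.

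The libraries held 13196249 to 19492793 expected counts, and every member had at least 150 counts in each of them. Kit itself stood at 33.9, 55.1 and 71.6 CPM (counts scaled to library size) in PHZ libraries and at 54.9, 63.9 and 51.7 CPM in PBS libraries, so the selected marker was present in all 6. Globin genes made up 9.55%, 22.0% and 16.1% of counts in PHZ libraries and 12.6%, 10.1% and 20.6% in PBS libraries. Which cells this globin RNA came from was not tested. The Y-linked transcripts Ddx3y and Eif2s3y went against the sex label in 3 libraries, PHZ replicate 3, PBS replicate 1 and PBS replicate 2. They were present in PHZ replicates 2 and 3 and PBS replicate 1, which are more libraries than are labelled male. Whether only sex entries are wrong or libraries were exchanged as well cannot be told apart. An exchange between groups would place a library's values in the wrong group. PBS replicate 1 also stood apart in its marker genes, with 540.5 CPM summed over 5 stromal and endothelial genes, against 62.5 and 73.5 CPM in the other PBS libraries and 19.3 to 44.0 CPM in PHZ libraries.

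Replication transcripts were more abundant in PHZ cells than in PBS cells across nearly the whole machinery. Of the 45 members 36 were called higher, none was called lower and 9 were not called (edgeR quasi-likelihood test, Benjamini-Hochberg adjusted p under 0.05 over all 13547 genes). Of all tested genes 8.99% were called higher and 4.17% lower. All 45 had an estimate above 0, as had 47.6% of all tested genes. The median log2 fold change of the members was 0.84, a 1.79-fold difference, and that of all tested genes was -0.04. At least 2-fold higher were 17 members, compared with 4.93% of all tested genes. The PHZ and PBS values did not overlap in 41 of the 45, compared with 22.5% of all tested genes that were higher in PHZ without overlap. The authors' deposited table marks 14 of the 45 members as Up and none as Down, against 3.18% of its genes marked Up. In that table the members marked Up had a log2 ratio of at least 1.006, and the others of at most 0.979. The 36 calls above used no bound on the fold change.

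Summed over the members, TMM-scaled CPM reached 4336, 5537 and 4535 in PHZ libraries, against 2376, 2659.5 and 2578 in PBS libraries. On this CPM scale PHZ replicate 2 held the highest PHZ value for 41 of the 45 members, and PBS replicate 1 the lowest PBS value for 31. In FPKM, a level per transcript length, the order of libraries differed for some members. Mcm2 had 94.4, 91.3 and 94.8 FPKM in PHZ libraries and 45.4, 49.0 and 41.6 FPKM in PBS libraries.

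The calls rest on few rats and depend on single libraries. Without PHZ replicate 1, 35 of the 45 members were called higher (8.98% of all genes higher and 4.07% lower). Without PBS replicate 1 there were 27 (7.68% higher and 5.54% lower). The count was 14 without PHZ replicate 2 (1.68% of all genes higher and 0.413% lower) and also 14 without PHZ replicate 3 (2.99% and 1.71%), with 13 members in both sets. Without PBS replicate 2 or PBS replicate 3 edgeR called 0 members and 0 of all genes, while 38 and 36 members had an unadjusted p under 0.05 and a higher estimate (14.1% and 13.7% of all genes). Without the 3 libraries that go against their sex label, which leaves 2 PHZ and 1 PBS libraries, edgeR again called 0 members and 0 of all genes. At an unadjusted p under 0.05 there were then 14 of the 45 members and 1504 of the 13547 genes, and the median log2 fold change of the members was 0.77. With the sex label as a covariate 27 members were called higher (5.06% of all genes higher and 1.79% lower), but since 3 of the 6 labels go against the Y-linked transcripts this fit does not adjust for sex. With DESeq2 37 members were called higher (14.1% of all genes higher and 11.5% lower).

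**Figure D1:**
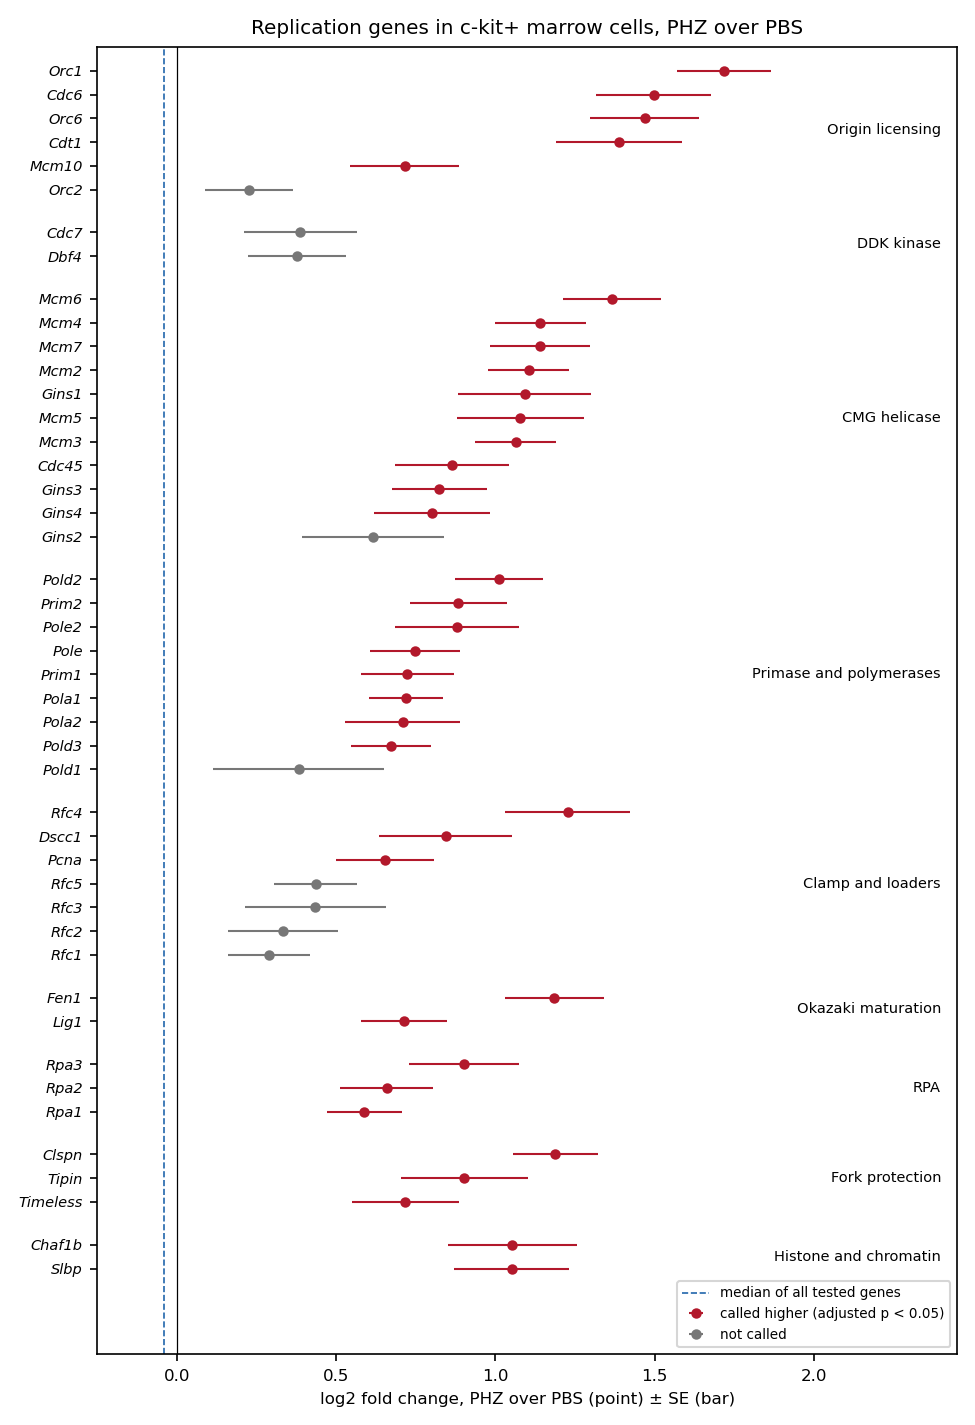
Log2 fold change of each of the 45 replication genes, PHZ over PBS (point) with its standard error (bar), grouped by role. The 36 called members are drawn in red and the 9 others in grey, the dashed line marks the median of all tested genes at -0.04, and Orc1 lies farthest to the right at 1.72.

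**Figure D2:**
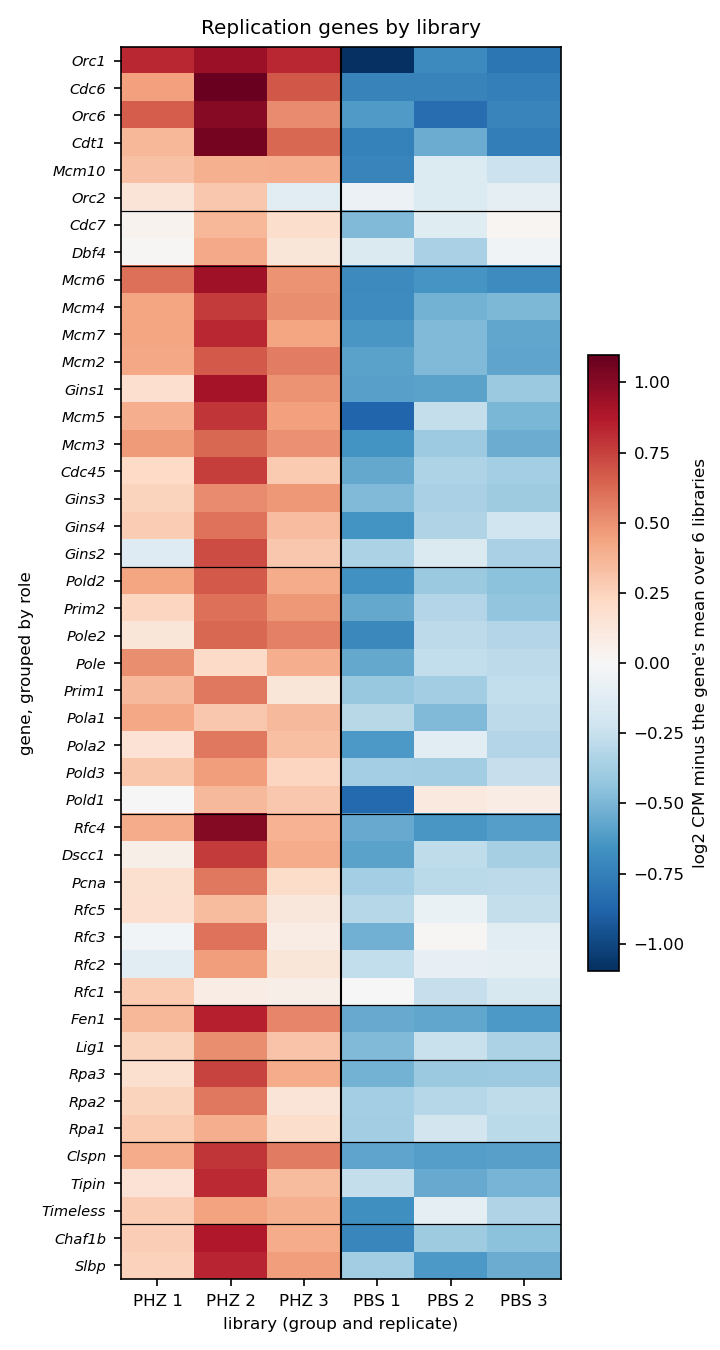
Level of each member in each library as log2 CPM minus the gene's mean over the 6 libraries, with PHZ libraries left of PBS libraries. PHZ 2 holds the highest PHZ value for 41 members and PBS 1 the lowest PBS value for 31.

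Promoter sequences of RefSeq (build GRCr8, 250 bases before to 50 after the annotated start) were matched by gene ID to 39 of the 45 members. Mcm4, Gins4, Orc1, Cdc6, Dscc1 and Rpa3 had no match. The letters TTTCCCGC, TTTGGCGC, TTTCGCGC and TTTGCCGC, forms of the site that E2F factors bind, were searched on both strands. They stood in 19 of the 39 member promoters (48.7%), against 2.25% of all 27457 promoters and 4.22% of the 8676 promoters of tested genes. Of the 30 matched members called higher 18 had such a match, and of the 9 matched members not called 1 had, Rfc3. Called members without a match included Orc6, Rfc4, Fen1, Chaf1b and Pold2, with log2 fold changes of 1.47, 1.23, 1.18, 1.05 and 1.01. Whether a match goes with a larger fold change was not tested. A match is a run of letters and not a shown site. The stretches below show the match nearest to the annotated start with 10 bases on each side, for the 7 helicase genes that have a match and for members of other roles. Each is written 5′ to 3′ on the gene's strand, with the letters of that match, or their reverse complement, in capitals. Bases that belong only to a further match stay in lower case, as in Mcm2, Mcm6, Gins1 and Rfc3.
Mcm2, chr4:122918087-122918114, minus strand: cccggttttcGCGCGAAAacccgtggca
Mcm3, chr9:30733735-30733762, minus strand: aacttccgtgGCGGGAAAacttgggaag
Mcm5, chr19:13488795-13488822, plus strand: caggttggttTTTCCCGCgaaagtcggc
Mcm6, chr13:42404470-42404497, minus strand: tctgcttttgGCGCGAAAttagcgtgtg
Mcm7, chr12:22163213-22163240, minus strand: ggtgacgacgTTTCGCGCcaatttcggt
Gins1, chr3:160184889-160184916, plus strand: agcctatttgGCGCCAAAgagaggagct
Gins3, chr19:9434698-9434725, minus strand: tgagtgaggcGCGGGAAAacgagtttga
Cdt1, chr19:67529246-67529273, plus strand: cgcgaaaattGCGCGAAAtccgcgggaa
Lig1, chr1:83243179-83243206, plus strand: caaggtctgcGCGCGAAAtctgtgtggc
Clspn, chr5:144134648-144134675, plus strand: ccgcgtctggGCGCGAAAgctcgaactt
Rfc3, chr12:5836555-5836582, plus strand: cgtcgcagccTTTCGCGCtcgcgggaaa

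Forms that end in GCGC can overlap with a match on the opposite strand. One such overlap is in the promoter of Mcm6, where TTTGGCGC on the gene strand and TTTCGCGC on the opposite strand share bases. It is printed here over 250 bases before the start, beside that of Orc2, which had no match and was the member with the smallest fold change.
Mcm6, chr13:42404353-42404602, minus strand: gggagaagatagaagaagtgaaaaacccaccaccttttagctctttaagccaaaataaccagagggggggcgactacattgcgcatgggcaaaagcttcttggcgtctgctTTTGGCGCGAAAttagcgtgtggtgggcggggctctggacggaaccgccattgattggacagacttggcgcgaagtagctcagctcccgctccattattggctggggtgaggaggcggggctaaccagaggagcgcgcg
Orc2, chr9:67526650-67526899, minus strand: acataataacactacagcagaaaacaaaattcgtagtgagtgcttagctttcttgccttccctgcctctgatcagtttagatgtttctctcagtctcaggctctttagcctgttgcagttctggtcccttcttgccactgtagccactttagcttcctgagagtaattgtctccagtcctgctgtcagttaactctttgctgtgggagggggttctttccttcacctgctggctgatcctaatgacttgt

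In all, 28 matches were found in the 19 promoters, 8 promoters had 2 or more, and 16 had a match no farther than 100 bases before the start. These counts take overlapping matches on opposite strands as separate, which occur in Mcm2, Mcm5, Mcm6 and Gins1. In Mcm2, Mcm6 and Gins1 the overlapping pair was all that was found. The CCAAT box (CCAAT), a common element near start sites, was in 21 member promoters (53.8%), against 38.4% of those of tested genes. The GC box GGGCGG, which SP factors bind, was in 25 (64.1%), against 62.0% of those of tested genes. The E box CACGTG, bound by MYC among others, was in 4 (10.3%, against 9.61%). The GATA letters AGATAA and TGATAA were in 2, Mcm2 and Prim1 (5.13%, against 10.03%). Of the 30 matched members called higher and the 9 not called, 17 and 4 had CCAAT, 21 and 4 had GGGCGG, 3 and 1 had CACGTG, and 2 and 0 had the GATA letters. Over all 27457 promoters the shares were 37.7% for CCAAT, 34.9% for GGGCGG, 6.65% for CACGTG and 18.6% for the GATA letters.

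**Figure D3:**
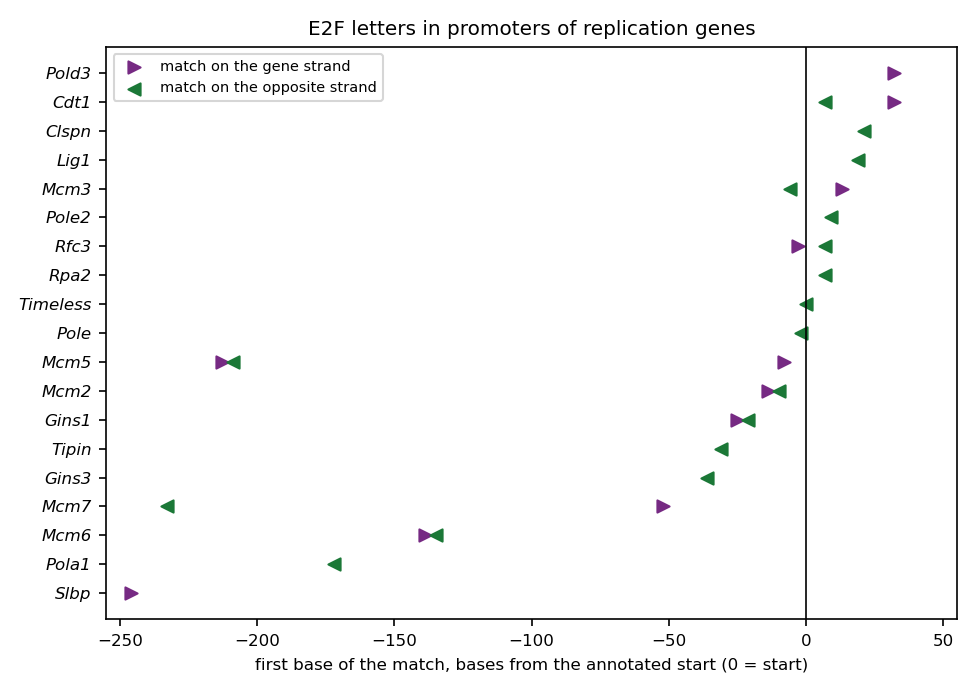
Position of each of the 28 E2F letter matches in the 19 member promoters that hold one, in bases from the annotated start (0), with the strand of the match given by the direction and colour of the marker. In 16 of the 19 genes a match lies between 100 bases before and 50 bases after the start.

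The 4 largest increases were those of the origin licensing genes Orc1, Cdc6, Orc6 and Cdt1. Orc1, the ORC subunit that is made and destroyed with the cell cycle, had 50.2, 54.0 and 49.96 CPM in PHZ libraries, against 13.2, 17.4 and 16.2 CPM in PBS libraries. All PHZ values lay far above all PBS values. Orc1 rose 3.29-fold (log2 fold change 1.72 ± 0.15, SE; edgeR adjusted p = 0.0154). Orc6, a small ORC subunit, Cdc6 and Cdt1, the loaders of the MCM ring, rose 2.77-, 2.82- and 2.62-fold. On the CPM scale Cdc6 was the tightest of all members in control cells, at 49.0, 49.0 and 48.4 CPM in PBS libraries. It spread over 111, 172 and 130.5 CPM in PHZ libraries. In FPKM it was not the tightest, at 18.9, 19.0 and 16.9 in PBS libraries, against 14.6, 14.5 and 14.4 for Pold3. Mcm10, which helps to activate the loaded helicase, rose 1.64-fold.

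Orc2, a core ORC subunit, was not called. It had 53.8, 59.9 and 45.1 CPM in PHZ libraries and 46.7, 44.0 and 45.2 CPM in PBS libraries, and the groups overlapped (log2 fold change 0.23 ± 0.14, SE; edgeR adjusted p = 0.289). The ORC subunits Orc3, Orc4 and Orc5, which are not members of the set, had log2 fold changes of 0.04, 0.13 and 0.24 (edgeR adjusted p = 0.911, 0.688 and 0.338) and overlapping groups. Per length, the order of ORC subunits differed between the groups. Orc1 had the lowest FPKM (a level per transcript length) of the 6 subunits in every PBS library, 4.98, 6.36 and 5.40. In PHZ libraries the lowest was Orc4 and the highest was Orc6, at 25.5, 26.1 and 21.0 FPKM.

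Geminin (Gmnn), the protein that binds and inhibits CDT1, rose as well, to 45.6, 59.1 and 39.6 CPM in PHZ libraries, against 27.4, 26.8 and 25.7 CPM in PBS libraries (1.80-fold; edgeR adjusted p = 0.029). Cdt1 had 109, 175 and 131 CPM in PHZ libraries, against 50.6, 57.9 and 49.9 CPM in PBS libraries. Within each library the log2 ratio of Cdt1 to Gmnn counts averaged 1.52 ± 0.24 in PHZ and 0.98 ± 0.12 in PBS libraries (SD, n = 3 each; exact permutation p = 0.10, two-sided, the smallest that 3 against 3 allows, and 0.167 adjusted over the 5 ratios tested). The groups did not overlap in this ratio. The CDC7 and DBF4 kinase genes were not called, although neither overlapped between groups. Cdc7, the catalytic subunit, had 25.7, 32.2 and 28.7 CPM in PHZ libraries and 17.9, 22.8 and 25.4 CPM in PBS libraries (log2 fold change 0.39 ± 0.18, SE; edgeR adjusted p = 0.175). Dbf4, its activator, had 62.2, 82.2 and 67.7 CPM in PHZ libraries and 55.2, 48.2 and 59.9 CPM in PBS libraries (0.38 ± 0.15, SE; edgeR adjusted p = 0.14).

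The 6 genes of the MCM ring rose together and by similar amounts, from 2.09-fold for Mcm3 to 2.58-fold for Mcm6. Mcm6 had 319, 401 and 295 CPM in PHZ libraries, against 129, 134 and 129.9 CPM in PBS libraries (log2 fold change 1.37 ± 0.15, SE; edgeR adjusted p = 0.0154). The other 5 had adjusted p of 0.0154 to 0.025, and no MCM ring gene overlapped between groups. Their levels per length stayed in a narrow band in both groups. Mcm7 was the most abundant subunit in every library, at 149.97, 160.3 and 137 FPKM in PHZ and 69.2, 77.3 and 66.1 FPKM in PBS libraries, and it stood 1.88 to 2.29 times above the least abundant subunit over the 6 libraries.

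Of the 5 partners of the ring in the active helicase 4 were called higher. Cdc45 rose 1.82-fold, to 36.1, 52.5 and 37.9 CPM in PHZ libraries, against 21.0, 24.5 and 24.0 CPM in PBS libraries (edgeR adjusted p = 0.0317). Among the 4 GINS genes, Gins1, Gins3 and Gins4 rose 2.13-, 1.77- and 1.74-fold. Gins2 was the only helicase gene that was not called, at 77.7, 141 and 105 CPM in PHZ libraries and 67.5, 77.0 and 67.0 CPM in PBS libraries (log2 fold change 0.62 ± 0.22, SE; edgeR adjusted p = 0.106). The groups did not overlap, and PHZ replicate 1 lay just above the highest PBS value. The value was 0.38 without PHZ replicate 2, and without PHZ replicate 1 it was 0.81 and called (edgeR adjusted p = 0.0377).

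Of 9 primase and polymerase genes 8 rose, by 1.59- to 2.02-fold. Pold2, an accessory subunit of polymerase delta, rose most, to 58.8, 69.4 and 57.5 CPM in PHZ libraries, against 27.5, 32.8 and 31.9 CPM in PBS libraries (log2 fold change 1.01 ± 0.14, SE; edgeR adjusted p = 0.0179). The smallest rise was that of Pold3, another accessory subunit (0.67 ± 0.12, SE; edgeR adjusted p = 0.0251). Pola1, Pola2, Prim1 and Prim2, which form polymerase alpha and primase, rose 1.63- to 1.85-fold, and the polymerase epsilon genes Pole and Pole2 rose 1.68- and 1.84-fold.

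The catalytic subunit gene of polymerase delta, Pold1, was the exception. It had 66.9, 85.7 and 82.3 CPM in PHZ libraries and 37.1, 72.1 and 70.9 CPM in PBS libraries, so PHZ replicate 1 lay below 2 of the PBS values (log2 fold change 0.38 ± 0.27, SE; edgeR adjusted p = 0.35). Its estimate was 0.13 without PBS replicate 1 and 0.54 without PBS replicate 2. Pold4, the smallest subunit of the same polymerase and not a member of the set, had the lower estimate in PHZ, with 15.8, 14.1 and 12.6 CPM in PHZ libraries and 36.8, 18.9 and 20.6 CPM in PBS libraries. The groups did not overlap, and PBS replicate 1 was far above the others, but Pold4 was not called (log2 fold change -0.84 ± 0.28, SE; edgeR adjusted p = 0.089). In FPKM, Pold2 was the most abundant of the 4 subunits in all PHZ libraries and Pold4 in all PBS libraries.

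**Figure D4:**
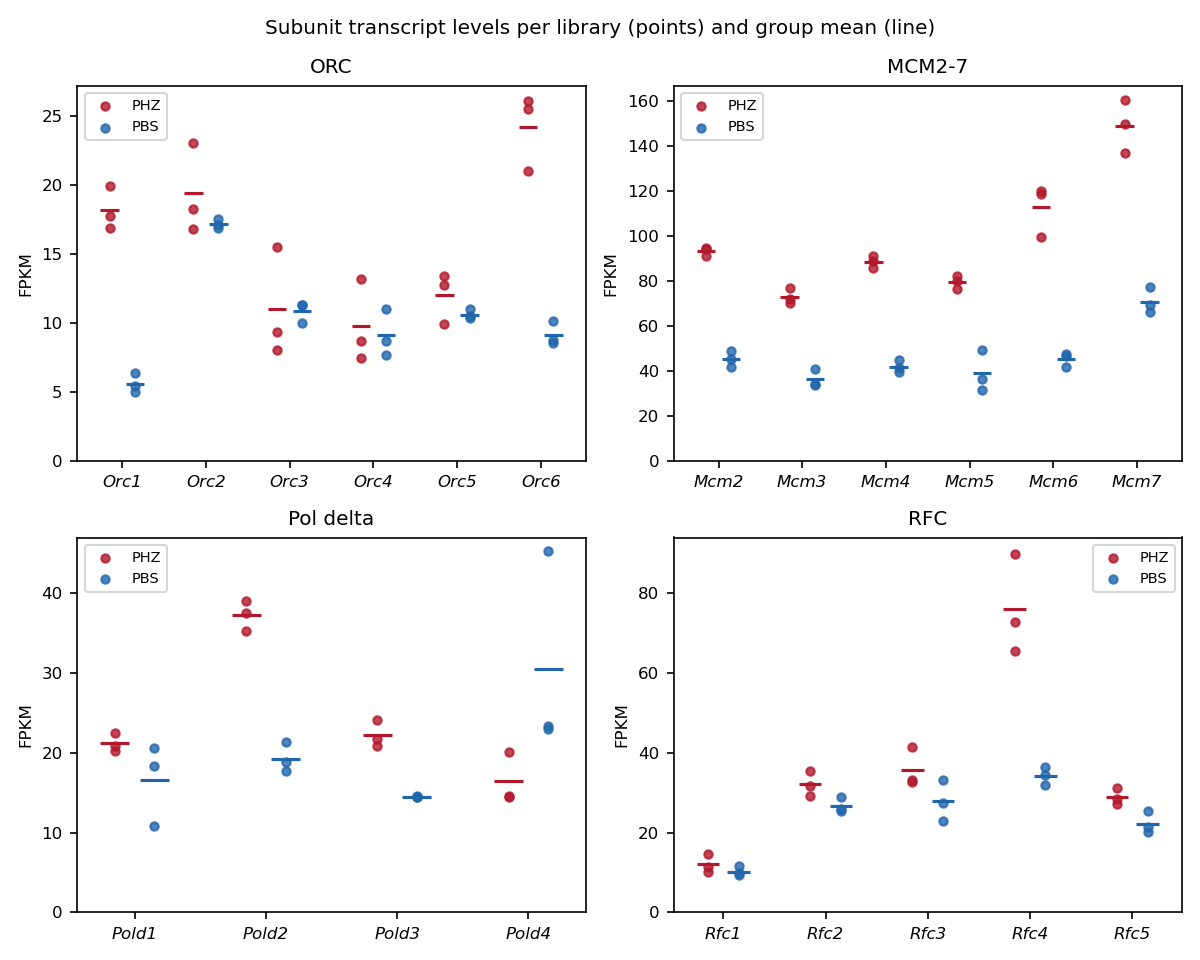
FPKM of the subunits of ORC, the MCM ring, polymerase delta and the clamp loader RFC in each library (points), with the group mean as a line and PHZ left of PBS. All MCM subunits are higher in PHZ, while in ORC, polymerase delta and RFC the groups are apart for Orc1, Orc6, Pold2, Pold3, Rfc2, Rfc4 and Rfc5 (higher in PHZ) and for Pold4 (lower in PHZ), and overlap for Orc2, Orc3, Orc4, Orc5, Pold1, Rfc1 and Rfc3.

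The sliding clamp gene Pcna was the most abundant member in both groups, at 316 ± 22.7 FPKM in PHZ and 211 ± 10.02 FPKM in PBS libraries (SD, n = 3 each). It rose 1.57-fold, a smaller estimate than that of any MCM ring gene (edgeR adjusted p = 0.0409). The log2 ratio of Pcna to the mean of the MCM ring genes within a library was 0.31 ± 0.06 in PHZ and 0.81 ± 0.08 in PBS libraries (SD, n = 3 each; exact permutation p = 0.10, two-sided, the smallest possible, and 0.167 adjusted over the 5 ratios). The groups did not overlap in it. For Mcm10 over the same mean the log2 ratio was -2.24 ± 0.16 in PHZ and -1.83 ± 0.21 in PBS libraries (SD, n = 3 each; exact permutation p = 0.10, adjusted 0.167), again without overlap.

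Among the genes of replication factor C (RFC), the loader that opens PCNA, only Rfc4 was called. Rfc4 had 81.6, 124 and 80.3 CPM in PHZ libraries, against 42.1, 39.5 and 40.5 CPM in PBS libraries (log2 fold change 1.23 ± 0.20, SE; edgeR adjusted p = 0.0214). Its lowest PHZ value was well above its highest PBS value. Rfc5 was nearest to a call, at 45.8, 51.4 and 43.8 CPM in PHZ libraries and 32.4, 38.3 and 33.6 CPM in PBS libraries, with no overlap (0.44 ± 0.13, SE; edgeR adjusted p = 0.0693). DESeq2 called Rfc5 (adjusted p = 0.0473). Rfc1, the large subunit, had 63.1, 54.7 and 54.3 CPM in PHZ libraries and 51.6, 43.4 and 45.7 CPM in PBS libraries (0.29 ± 0.13, SE; edgeR adjusted p = 0.166).

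Rfc2 and Rfc3, the remaining small RFC subunits, overlapped between groups in CPM. Rfc2 had 40.5, 60.7 and 48.4 CPM in PHZ libraries and 36.5, 41.3 and 40.8 CPM in PBS libraries (log2 fold change 0.33 ± 0.17, SE; edgeR adjusted p = 0.219). For Rfc3 the values were 37.2, 57.4 and 40.2 CPM in PHZ libraries and 26.4, 38.4 and 35.0 CPM in PBS libraries (0.43 ± 0.22, SE; edgeR adjusted p = 0.214). In both genes PHZ replicate 2 was the high value. The log2 ratio of Rfc1 to the mean of Rfc2 to Rfc5 did not separate the groups, at 0.04 ± 0.35 in PHZ and 0.35 ± 0.24 in PBS libraries (SD, n = 3 each; exact permutation p = 0.40, adjusted 0.40). Nor did the ratio of Pold1 to Pole, at -0.45 ± 0.33 in PHZ and -0.14 ± 0.38 in PBS libraries (SD, n = 3 each; exact permutation p = 0.30, adjusted 0.375). Dscc1, a subunit of the alternative loader that serves sister chromatid cohesion, rose 1.79-fold (edgeR adjusted p = 0.0459).

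Rfc4 stood above its partners per length. It was the most abundant RFC subunit in all 6 libraries, at 72.8, 89.8 and 65.4 FPKM in PHZ and 36.4, 34.3 and 31.9 FPKM in PBS libraries, and Rfc1 was the least abundant. The distance between them was 5.02- to 8.78-fold in PHZ libraries and 3.17- to 3.51-fold in PBS libraries.

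Genes for joining Okazaki fragments, for covering single strands and for guarding the fork were all called higher. Fen1, the flap endonuclease, had 65.0, 91.5 and 73.3 CPM in PHZ libraries, against 34.4, 33.9 and 32.7 CPM in PBS libraries (log2 fold change 1.18 ± 0.15, SE; edgeR adjusted p = 0.0169). Lig1, the ligase that seals the fragments, rose 1.64-fold (edgeR adjusted p = 0.0258). Clspn, which encodes the checkpoint mediator claspin, had 105, 136 and 118 CPM in PHZ libraries, against 53.0, 52.2 and 52.5 CPM in PBS libraries. It rose 2.28-fold, with PBS values that lay within 1 CPM of each other (edgeR adjusted p = 0.0154). Its partners at the fork, Timeless and Tipin, rose 1.64- and 1.87-fold (edgeR adjusted p = 0.0406 and 0.0363).

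The 3 genes of replication protein A, which coats single-stranded DNA, rose by 1.503-fold for Rpa1, 1.58-fold for Rpa2 and 1.87-fold for Rpa3 (edgeR adjusted p = 0.029, 0.0369 and 0.0269). Rpa3 had 32.0, 47.6 and 37.6 CPM in PHZ libraries, against 19.8, 21.4 and 21.5 CPM in PBS libraries. In none of the 3 genes did the groups overlap.

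Both genes of histone supply and chromatin assembly that were listed rose about 2-fold. Slbp, whose product binds the stem-loop of histone mRNAs, had 161, 240.5 and 185 CPM in PHZ libraries, against 103, 87.1 and 92.3 CPM in PBS libraries (log2 fold change 1.05 ± 0.18, SE; edgeR adjusted p = 0.0226). Chaf1b, the middle subunit of chromatin assembly factor 1, had 28.3, 43.3 and 31.1 CPM in PHZ libraries, against 14.3, 17.9 and 17.2 CPM in PBS libraries (1.05 ± 0.20, SE; edgeR adjusted p = 0.0268). For the large subunit, whose symbol Chaf1a was not listed, the authors' files annotate 5 numbered loci as chromatin assembly factor 1 subunit A. Summed over these loci there were 71.9, 72.7 and 78.6 CPM in PHZ libraries and 35.0, 52.8 and 45.3 CPM in PBS libraries, with no overlap. None of the 5 loci was called singly (edgeR adjusted p = 0.149 to 0.898), and they are not counted among the members. Taken singly, the groups overlapped in each locus, and the log2 fold changes ran from -0.61 to 1.99.

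Of 35 further replication genes, 28 were listed and tested, and 13 of these were called higher, none lower and 15 not called, against 8.99% of all tested genes called higher and 4.17% lower. The count of 13 was 4 without PHZ replicate 2, 5 without PHZ replicate 3, and 0 without PBS replicate 2 or PBS replicate 3. The 3 with the smallest p were Donson, which acts in helicase assembly, Nasp, a histone chaperone, and Supt16h, a subunit of the FACT histone chaperone. Donson had 48.9, 59.4 and 46.5 CPM in PHZ libraries, against 24.8, 18.1 and 20.9 CPM in PBS libraries (2.43-fold; edgeR adjusted p = 0.0175). Nasp and Supt16h rose 2.09- and 1.75-fold (edgeR adjusted p = 0.0197 and 0.0201). Orc3, Orc4, Orc5, Pold4, Top2a and Top2b were named after their values were seen. The median log2 fold change of the 28 genes was 0.68, and 26 of them had an estimate above 0. Top2a, the topoisomerase of dividing cells, had a log2 fold change of 0.51 ± 0.15, and its paralogue Top2b, which non-dividing cells also make, one of -0.30 ± 0.17 (SE), neither of them called (edgeR adjusted p = 0.0721 and 0.242).

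Marker genes of several cell types moved with the groups. Over all tested genes 8.99% were called higher and 4.17% lower, and edgeR called 0 without PBS replicate 2 or PBS replicate 3. Of 7 listed erythroid markers 5 were called higher, and their summed level was 9114 to 11509 CPM in PHZ and 4197 to 6266 CPM in PBS libraries. Among 6 B lineage markers 5 were called lower (115 to 229 CPM in PHZ and 548 to 646 CPM in PBS libraries), as were 5 of 7 T and NK markers (64.4 to 82.5 CPM in PHZ and 64.2 to 178 CPM in PBS libraries). Nkg7, the most abundant T and NK marker, is in that sum, overlapped between groups and was not called (edgeR adjusted p = 0.473). Of those called, Cd3e, Cd3g and Cd5 had at most 1.30 CPM in PHZ libraries. No neutrophil granule marker of 7 tested was called, while their sum was 5004 to 8917 CPM in PHZ and 9798 to 23577 CPM in PBS libraries. Pecam1 was the 1 gene called, lower in PHZ, among 4 stromal and endothelial markers tested. None of 6 monocyte and macrophage (882 to 1481 CPM in PHZ and 1007 to 2767 CPM in PBS libraries), 3 megakaryocyte (23.4 to 31.6 CPM in PHZ and 30.9 to 50.4 CPM in PBS libraries) and 4 mast cell and basophil markers (309 to 468 CPM in PHZ and 494 to 978 CPM in PBS libraries) was called. No listed marker was at 0 in all 6 libraries. The part of these shifts in the levels of the replication genes was not tested.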

How the data were processed

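Poly(A) RNA of c-kit+ marrow cells was sequenced from 6 rats, 1 library each, so p-values measure the spread between rats. The submitters' processing notes name the build rn6 and the tools RSEM, HISAT and GATK without roles or versions. Strand handling is not given in the sources used here. For each gene and library, the authors deposited an expected count (an estimated count that need not be whole) and an FPKM value, per the file headers. Genes not listed in a library were set to 0. The authors' deposited table holds group means in FPKM, a PHZ to PBS log2 ratio, a Probability score and an Up or Down mark.

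Expected counts were rounded and compared between treatments by the quasi-likelihood test of edgeR 4.0.16 (glmQLFit with robust estimation, then glmQLFTest) under R 4.3.3. Genes were kept by filterByExpr, libraries scaled by TMM, no covariate was used, and p-values were adjusted by Benjamini-Hochberg over 13547 genes. CPM are TMM-scaled, except sums of markers, Y-linked genes and loci, which are per library total. Standard errors were obtained by dividing the size of each log2 fold change by the root of its F statistic. Depths were 13196249 to 19492793 counts. Ratios within a library used log2 of counts plus 0.5. DESeq2 1.42.0, limma 3.58.1 on log2(FPKM + 1) and log2(FPKM + 0.1), and other scalings, filters, covariates and left-out libraries were alternatives.

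The members and lists were chosen with earlier results of these data known. Genes described in full were, in each role, the member with the smallest p, those with the largest and smallest fold change and all not called, and of the further replication genes the 3 called with the smallest p and Gmnn. Other genes were named after their values were seen. How reads shared with processed copies of a gene were divided is not given in the sources used here.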

Additional observations from a re-analysis of the deposited data

How the results depend on the processing

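All 45 members kept an estimate above 0 in each of the 15 alternatives, and the median log2 fold change of the members ran from 0.72 with limma on log2(FPKM + 1) to 0.97 without PHZ replicate 1. The number of members called was 36 (1783 of all genes), and 37 with DESeq2, 31 with upper-quartile scaling (1619 of all genes), 35 with globin genes left out (1798) and 35 with no low-count filter (1550). It was 32 with limma on log2(FPKM + 1) (1363 of all genes) and 31 on log2(FPKM + 0.1) (1281). Leaving out 1 library at a time gave 0 to 35 members, 0 to 13 of the 28 further replication genes and 0 to 1791 of all genes, with 0 in all 3 counts without PBS replicate 2 and without PBS replicate 3. Without the 3 libraries against their sex label all 3 counts were also 0 (14 members, 4 further genes and 1504 of all genes at an unadjusted p under 0.05). DESeq2 called 20 of the further genes, among them 1 lower, and 3469 of all genes, against 1783 by edgeR (68.3% of them higher, and 55.1% with DESeq2 and 58.7% with upper-quartile scaling). With the sex label, which 3 libraries contradict, as a covariate 27 members and 928 of all genes were called. Among members not called, the log2 fold change without PHZ replicate 2 was 0.13 for Orc2, 0.17 for Rfc2 and 0.22 for Rfc3, and without PBS replicate 1 it was 0.26 for Cdc7. The cause of these differences was not tested. A left-out rat also leaves fewer libraries, and this was not separated from which rat was left out.

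Same-numbered libraries did not deviate together in every pair (r = 0.21, 0.06 and 0.005 across genes), so the numbers were not taken as pairs. With the replicate number as a block edgeR called 0 members, 0 further genes and 0 of all genes, while 40 members had an unadjusted p under 0.05, and 20 further genes and 4641 of all genes. Not every library correlated best with its own number. With 3 rats a group, the design could not show by permutation a p under 0.10 for any ratio.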
